A study of Homo sapiens with 4 samples.

Results

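LINC-named long RNAs carry symbols, LINC with a number or LNCPRESS, that were given to genes of long intergenic noncoding RNAs. The 71 described here were chosen by their level: they are the rows of the deposited table with such a symbol and a mean of at least 50 normalized counts over the XMD892 libraries. They are 71 of 290 genes with a symbol of that pattern, or 24.5%, while 63.8% of all 19775 genes in the table reached the same minimum. Levels below are therefore a description and carry no test. The cells were H1, an established line of human embryonic stem cells with a WT genotype, kept in E8, a defined medium that holds insulin, FGF2 and TGFβ. According to the labels, 2 samples received 1 µM XMD892, an inhibitor of the kinase ERK5, for 12 h in E8, and 2 samples were kept in E8 for 12 h without it. Of the 9 columns in the table, 2 matched samples by name, replicate 1 and replicate 2 of the XMD892 cells. The columns named for E8 carry another culture time, so cells in E8 alone were not analysed here and no value below is an effect of the compound.

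Long intergenic noncoding RNAs are mostly capped, spliced and polyadenylated transcripts of genes that lie between coding genes, and they are as a rule less abundant and more restricted to particular cell types than messenger RNAs. Some mark pluripotent cells: LNCPRESS1 binds the deacetylase SIRT6 in human embryonic stem cells, keeps it away from chromatin and is repressed by p53. Other genes that first received a LINC symbol have since been found to encode small proteins or to host small nucleolar RNAs or microRNAs.

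The libraries were similar in depth, with 18528689 reads on genes of the table in replicate 1 and 20217648 in replicate 2. Whether separate cultures were used is not in the labels, so variation between cultures and technical variation cannot be told apart. All 8 pluripotent markers were listed and none was at 0 (summed normalized counts 160579 in replicate 1 and 187842 in replicate 2). The OCT4 gene POU5F1 held 42265 and 88345 of these sums, and 4 of the 8 markers were higher in each library. All 6 hypoxia markers were at least 2-fold higher in replicate 2 (sums 21569 and 55323), as were 2.75% of all genes with a mean of at least 50. The marker lists were chosen with earlier results of these data known, so these counts are a description only. Of 6 fibroblast markers 2 were listed, COL1A1 and COL1A2, both higher in replicate 1 (sums 2867 and 1122). Of 4 endoderm markers 1 was listed (27.9 and 21.1), of 4 mesoderm markers 3 (53.7 and 140.3) and of 4 neural markers 2 (223.3 and 107.6). The part of these differences in the values below was not tested.

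RefSeq promoter windows (build GRCh38.p14, 250 bases before to 50 bases after an annotated start) were matched to 52 of the 71 members, 62 windows in all. The 5 printed here belong to stem cell members, to the member with an octamer, and to a pair of opposed genes whose differences between the libraries were unlike. LINC01108 (chr6:14285405-14285704, minus strand) is shown with TATAAA in capitals, and LNCPRESS1 (chr7:101299363-101299662, plus strand) with each CG pair in capitals. LINC00641 (chr14:21206851-21207150, minus strand) has the octamer ATGCAAAT in capitals. LINC00526 (chr18:5237980-5238279, minus strand) and LINC00667 (chr18:5237850-5238149, plus strand) have each CG pair in capitals.
LINC01108: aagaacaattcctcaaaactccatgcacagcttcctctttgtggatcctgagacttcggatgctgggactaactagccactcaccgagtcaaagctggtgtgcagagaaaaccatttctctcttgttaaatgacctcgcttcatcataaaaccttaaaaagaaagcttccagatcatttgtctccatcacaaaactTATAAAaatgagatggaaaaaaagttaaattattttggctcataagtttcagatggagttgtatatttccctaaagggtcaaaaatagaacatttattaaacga
LNCPRESS1: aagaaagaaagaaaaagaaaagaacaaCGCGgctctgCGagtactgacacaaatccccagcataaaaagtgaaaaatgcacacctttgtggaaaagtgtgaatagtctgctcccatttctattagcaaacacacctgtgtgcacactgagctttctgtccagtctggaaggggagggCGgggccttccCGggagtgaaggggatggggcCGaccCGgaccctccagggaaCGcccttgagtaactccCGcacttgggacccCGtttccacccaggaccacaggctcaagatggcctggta
LINC00641: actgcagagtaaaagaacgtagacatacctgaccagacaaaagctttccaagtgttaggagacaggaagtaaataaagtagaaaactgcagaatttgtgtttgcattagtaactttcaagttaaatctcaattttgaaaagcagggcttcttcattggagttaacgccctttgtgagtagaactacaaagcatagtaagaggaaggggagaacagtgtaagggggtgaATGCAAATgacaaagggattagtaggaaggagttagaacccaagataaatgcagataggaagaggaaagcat
LINC00526: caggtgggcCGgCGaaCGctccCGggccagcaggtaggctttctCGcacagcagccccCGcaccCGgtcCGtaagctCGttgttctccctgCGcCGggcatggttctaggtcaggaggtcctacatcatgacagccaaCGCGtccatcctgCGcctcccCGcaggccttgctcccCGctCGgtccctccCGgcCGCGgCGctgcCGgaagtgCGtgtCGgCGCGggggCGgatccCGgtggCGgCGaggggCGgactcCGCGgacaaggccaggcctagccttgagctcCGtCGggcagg
LINC00667: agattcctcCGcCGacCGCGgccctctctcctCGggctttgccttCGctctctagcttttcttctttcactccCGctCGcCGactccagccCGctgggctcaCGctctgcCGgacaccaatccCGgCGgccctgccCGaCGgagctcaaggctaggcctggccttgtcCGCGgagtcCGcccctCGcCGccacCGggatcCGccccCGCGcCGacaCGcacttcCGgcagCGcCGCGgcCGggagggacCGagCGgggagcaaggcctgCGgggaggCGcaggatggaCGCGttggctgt

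The members' windows held a median of 20.5 CG pairs, against 14 over all 35116 windows. Windows of all genes were taken with no minimum level, unlike those of the members, so neither this nor the shares below compare genes of like level. Windows with at most 10 CG pairs made up 35.5% of the members' windows and 45.3% of all. The LINC01108 and LNCPRESS1 windows were among them, with 4 and 10 pairs, while the LINC00526 and LINC00667 windows held 35 and 38. TATAAA, searched on both strands like the other motifs, occurred in 16.1% of the members' windows and 11.5% of all. The octamer ATGCAAAT, letters that POU factors such as OCT4 can bind, occurred in 3.23% of the members' windows and 1.77% of all, and both member windows belonged to LINC00641. ACGTG, the core of the hypoxia response element, occurred in 21.0% of the members' windows and 21.4% of all. CACGTG, which contains ACGTG, occurred in 6.45% and 7.26%. A match describes the letters of a window and says nothing of binding.

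The members took a small share of the RNA, 0.112% ± 0.00298 of the reads (SD, n = 2). They held 21197 reads in replicate 1 and 22276 in replicate 2. The 3 highest members held 35.7% of the members' normalized counts and the 12 highest held 61.1%. Levels were compared between genes per length, as RPKM (reads divided by exon length and by the library's total reads), which was possible for 68 members. The median member stood at 2.04 RPKM, from 0.207 RPKM for LINC00963 to 161 RPKM for LINC00678. The 437 other long noncoding genes at the same minimum had a median of 2.46 RPKM and the 11721 protein-coding genes one of 6.35 RPKM. At least 1 RPKM in both libraries was seen for 46 of 68 members, and at least 10 RPKM for 9. The members' merged exons had a median length of 3301 bases and their longest transcript a median of 3 exons, against 5320 bases and 8 exons for the coding genes.

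**Figure D1:**
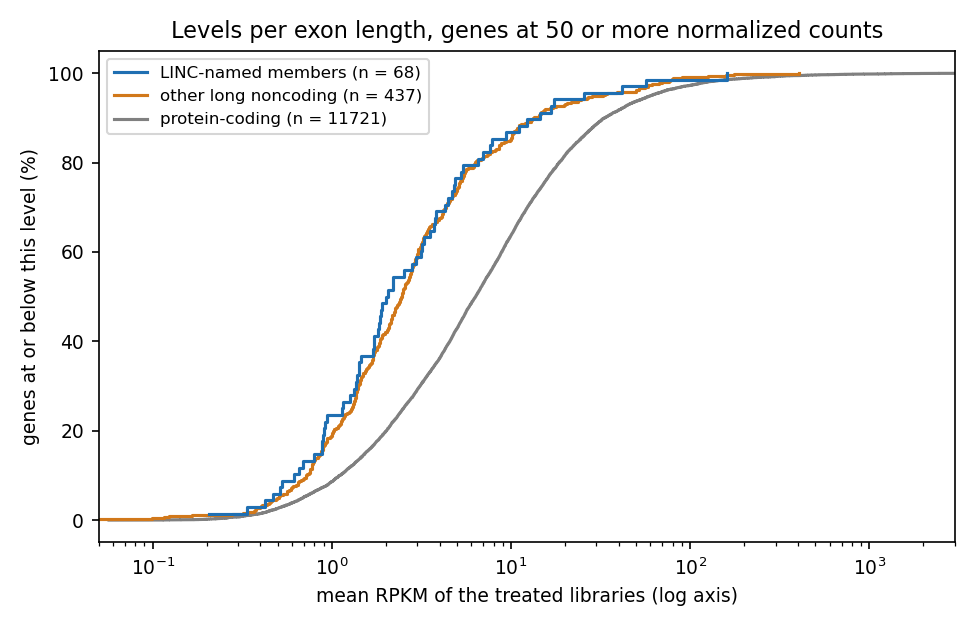
Cumulative share of genes (vertical axis, %) at or below each mean RPKM of the XMD892 libraries (horizontal log axis), for members, other long noncoding genes and protein-coding genes with a mean of at least 50 normalized counts. The members' curve lies close to that of the other long noncoding genes, with medians of 2.04 and 2.46 RPKM, and to the left of the coding genes at 6.35 RPKM.

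RNAs of the stem cell list held the 3 highest levels. LINC00678 had 3038 reads in replicate 1 and 4266 in replicate 2, or 3261 and 4502 normalized counts. It stood at 161 ± 28.6 RPKM (SD, n = 2, as for every level below), above every other member in each library. Its gene is on the minus strand at chr11:27617626-27634627 (GRCh38), 20266 bases from BDNF. LNCPRESS2, which p53 represses in human embryonic stem cells, had 550 reads in replicate 1 and 817 in replicate 2, or 590.4 and 862 normalized counts. It stood at 56.9 ± 12.3 RPKM, with its gene on the minus strand at chr4:92268767-92277075. LNCPRESS1, the SIRT6 decoy, had 537 reads in replicate 1 and 878 in replicate 2, or 576 and 927 normalized counts. It stood at 41.8 ± 11.8 RPKM, with its gene on the plus strand at chr7:101299578-101301346. Its range over the libraries overlapped that of LNCPRESS2, but LNCPRESS2 was higher in each library. LNCPRESS2 and LNCPRESS1 stood at 48.2 and 33.4 RPKM in replicate 1, and at 65.6 and 50.1 RPKM in replicate 2. LINC01108, which RefSeq also calls LncRNA-ES1, was lower and even between the libraries. It had 358 reads in replicate 1 and 398 in replicate 2, or 384 and 420.0 normalized counts, and stood at 5.28 ± 0.0697 RPKM. Its gene is on the minus strand at chr6:14280127-14285454, 143209 bases from CD83. The list has 7 names. Under the minimum were LINC00458, with 8 and 8 reads, and LINC00545, with 10 and 26 reads. LINC00261, a neighbour of the endoderm gene FOXA2, is not listed.

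All 4 of these members were higher in replicate 2, as were 53.9% of all 12609 genes at the minimum. Differences are log2(normalized count + 1), replicate 2 less replicate 1. They came to 0.68 for LNCPRESS1, 0.55 for LNCPRESS2, 0.46 for LINC00678 and 0.13 for LINC01108, so none reached 2-fold. Their median was 0.51, against 0.037 over all genes at the minimum. Of the 8 pluripotent markers 4 were higher in each library: POU5F1, the gene of OCT4, was 2.09-fold higher in replicate 2, and the DNA methyltransferase gene DNMT3B was 1.62-fold higher in replicate 1.

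Members now known as coding genes ranged from 3.26 to 25.4 RPKM. RefSeq gives 4 of the 71 as protein-coding under another symbol and 67 as long noncoding RNAs. LINC00371, now C13orf42, had 1890 reads in replicate 1 and 1659 in replicate 2 and stood at 25.4 ± 3.90 RPKM, the fourth level of all. LINC00998, now SMIM30, encodes a small membrane protein. It had 402 reads in replicate 1 and 674 in replicate 2 and stood at 14.5 ± 4.34 RPKM. LINC00116, now MTLN, encodes mitoregulin, a small protein of the inner mitochondrial membrane. It had 232 reads in replicate 1 and 327 in replicate 2 and stood at 6.10 RPKM in replicate 1 and 7.89 RPKM in replicate 2. LINC00094, now BRD3OS, had 405 reads in replicate 1 and 348 in replicate 2 and stood at 3.26 ± 0.548 RPKM. It shares 1281 bases of exon with BRD3 on the opposite strand, and since the strand setting of the counting is not given in the sources used here, reads in those bases cannot be told apart. Of the 4 coding members 2 were higher in each library and none reached 2-fold.

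The small-peptide list has 9 names, of which 4 were listed and 3 were members: LINC00998, LINC00116 and LINC00467. Names of this and every other list were searched only as written, so a gene present under another symbol counts as not listed. LINC00467, reported to encode a small peptide in colorectal cancer cells, had 124 reads in replicate 1 and 126 in replicate 2 and stood at 1.45 ± 0.0732 RPKM. Its counting interval (95%, exact binomial) for the difference between the libraries included equal levels. LINC00908, under the minimum, had 0 reads in replicate 1 and 12 in replicate 2.

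Hosts of small RNAs stood between 4.45 and 6.54 RPKM. By their present symbols 4 members are such hosts. LINC00599, now MIR124-1HG, hosts a copy of miR-124, a microRNA of neurons. It had 524 reads in replicate 1 and 522 in replicate 2 and stood at 6.54 ± 0.421 RPKM. LINC02001, now SNHG30, a small nucleolar RNA host, had 125 and 156 reads and stood at 4.81 ± 0.456 RPKM. LINC00888, now SNHG33, another such host, had 172 and 196 reads and stood at 4.45 ± 0.137 RPKM. LINC00969, now MIR570HG, had 280 and 218 reads and no length in the annotation used. Of these 4 hosts 2 were higher in each library. The counting interval included equal levels for LINC00599, LINC02001 and LINC00888, and excluded them for LINC00969.

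Other abundant members are given by level, and for most of them no role is stated here. LINC00665 came second by normalized count, with 2542 reads in replicate 1 and 2118 in replicate 2, or 2729 and 2235 normalized counts. Over 7201 bases of merged exon this was 16.8 ± 3.18 RPKM, the sixth level. LINC01315 had 417 reads in replicate 1 and 435 in replicate 2 and stood at 17.4 ± 0.552 RPKM. The ranges of LINC01315, LINC00665 and LINC00998 over the libraries overlapped. LINC01194 had 418 and 474 reads and stood at 12.3 ± 0.335 RPKM. LINC01224 had 632 and 797 reads and stood at 11.2 ± 1.14 RPKM. LINC01194 lies 670814 bases from CTNND2, a catenin gene, and LINC01224 lies 3673 bases from ZNF91, a zinc finger gene. LINC01896 had 215 and 424 reads and stood at 9.40 ± 3.82 RPKM, and lies 1201 bases from SALL3, a zinc finger gene on the opposite strand. LINC02315 had 71 and 142 reads and stood at 7.80 ± 3.24 RPKM. LINC00641 had 1026 and 638 reads and stood at 7.61 ± 2.95 RPKM, higher in replicate 1 at a log2 difference of -0.71. The gaps between the libraries for these last 3 members were 1.93-fold, 1.95-fold and 1.63-fold.

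LINC01578, now CHASERR, lies upstream of the chromatin remodeller gene CHD2 and is known to repress it. It had 479 reads in replicate 1 and 655 in replicate 2 and stood at 5.40 ± 0.858 RPKM. CHD2 itself had 1543 reads in replicate 1 and 1877 in replicate 2 and stood at 5.19 ± 0.399 RPKM, and both were higher in replicate 2, at log2 differences of 0.43 and 0.26. LINC01021, now PURPL, is induced by p53 and dampens it. It had 224 reads in replicate 1 and 210 in replicate 2 and stood at 4.26 ± 0.456 RPKM. LINC02210, with 520 and 513 reads, was among the 12 highest by normalized count but stood at 1.72 ± 0.122 RPKM, over 15578 bases of merged exon. Its exons share 418 bases with the readthrough gene LINC02210-CRHR1.

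**Figure D2:**
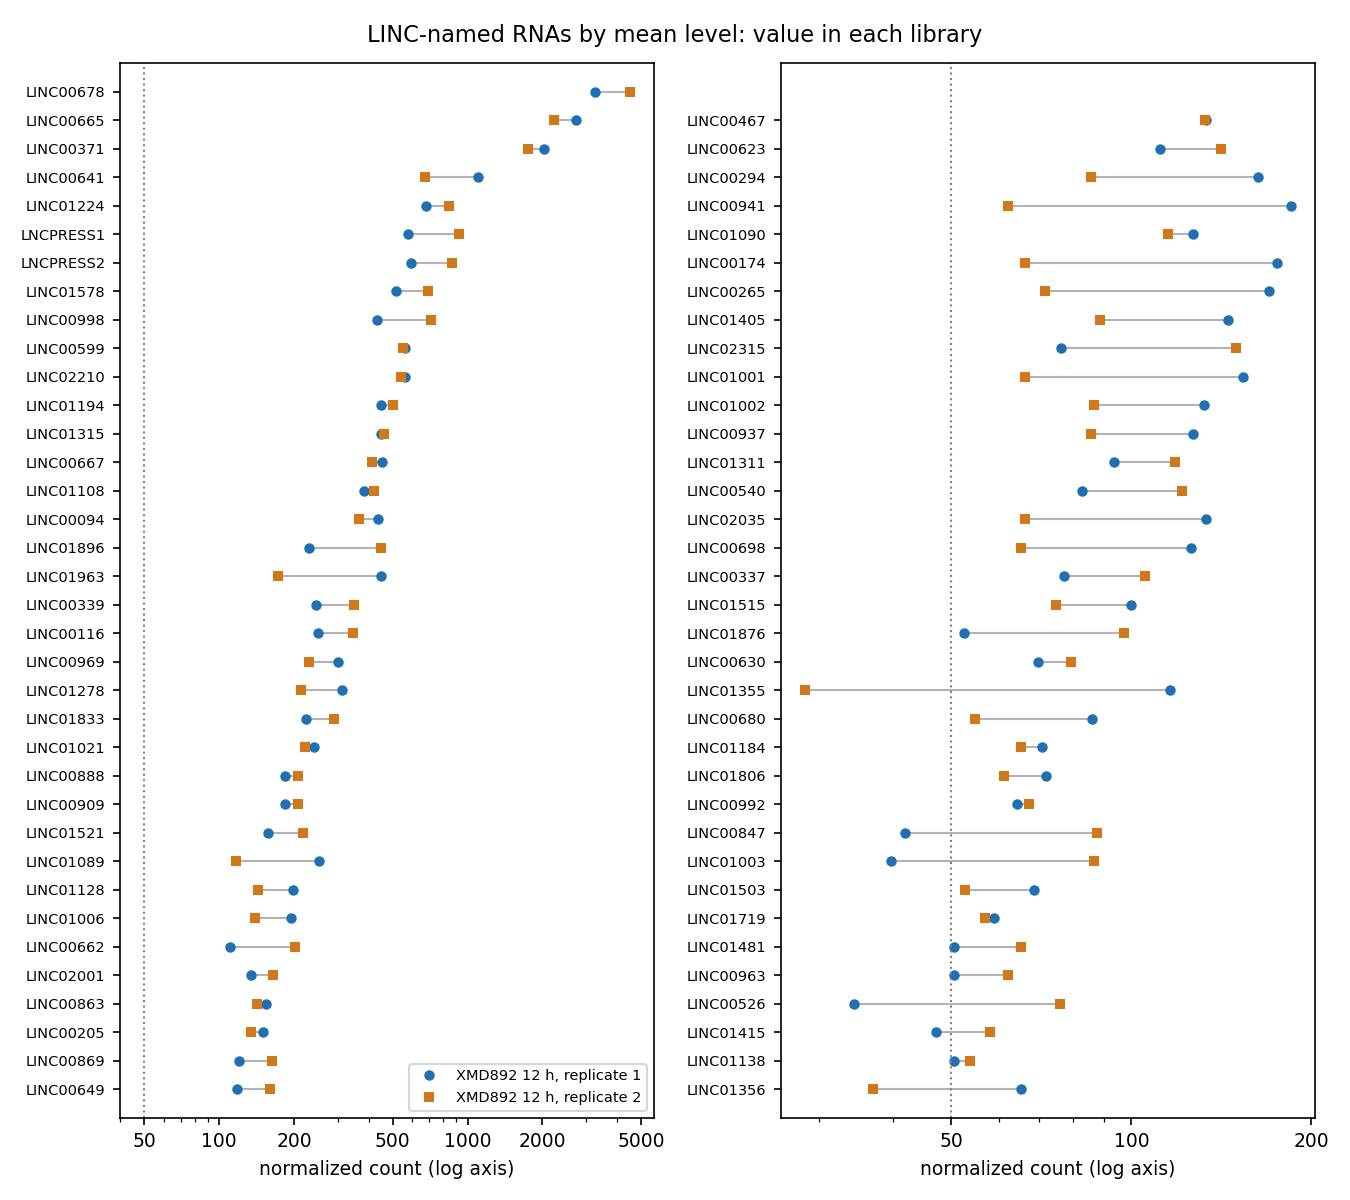
Normalized count (horizontal log axis) of each of the 71 members in replicate 1 (circles) and replicate 2 (squares) of cells treated with XMD892 for 12 h, by mean level down the left panel and then the right, each on its own axis; the dotted line marks the minimum mean of 50. LINC00678 leads with 3261 and 4502 normalized counts, and the widest gap is that of LINC01355, with 116 and 28.5 normalized counts.

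The libraries differed in single members and in both directions. Replicate 1 had the higher value for 36 of the 71 members and replicate 2 for 35. The median difference was -0.0016, and 47 members lay within 1.5-fold. At least 2-fold apart were 10 members, or 14.1%, against 5.64% of all genes at the minimum. Other long noncoding genes at the minimum had shares of 9.38% toward replicate 1 and 5.72% toward replicate 2. The members are low, and low genes were apart more often: from the minimum to 304.0 normalized counts, the members' upper quartile, the share was 17.0% of members (9 of 53) and 12.8% of all 3773 genes. With 1 library on each side there is no test and no gap has a replicate check. The 95% counting interval (exact binomial, Clopper-Pearson; it covers counting error only) excluded equal levels for 43 members, or 60.6%, against 65.6% of all genes.

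Toward replicate 1, 7 of the 71 members were at least 2-fold apart. The shares of genes were 2.89% over all, 9.38% over other long noncoding genes and 2.39% over protein-coding genes. LINC01355 had 108 reads in replicate 1 and 27 in replicate 2, a 3.96-fold gap with a log2 difference of -1.99 (counting interval -2.69 to -1.41). LINC00941 had 172 reads in replicate 1 and 59 in replicate 2, a 2.93-fold gap. LINC00174 had 163 reads in replicate 1 and 63 in replicate 2, a 2.61-fold gap. LINC01963, the only one of the 7 above the members' upper quartile, had 417 reads in replicate 1 and 164 in replicate 2, a 2.58-fold gap. The others were LINC00265, with 158 and 68 reads, LINC01001, with 143 and 63 reads, and LINC01089, with 234 and 111 reads.

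Toward replicate 2, 3 of the 71 members were at least 2-fold apart. The shares of genes were 2.75% over all, 5.72% over other long noncoding genes and 2.57% over protein-coding genes. LINC00526 had 32 reads in replicate 1 and 72 in replicate 2, a 2.18-fold gap. LINC01003 had 37 reads in replicate 1 and 82 in replicate 2, a 2.15-fold gap. LINC00847 had 39 reads in replicate 1 and 83 in replicate 2, a 2.07-fold gap, and fell under 2-fold with a pseudocount of 5 and with total reads as the scale, at log2 differences of 0.98 and 0.95. Next came LINC02315, LINC01896 and LINC01876, at 0.97, 0.95 and 0.87.

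**Figure D3:**
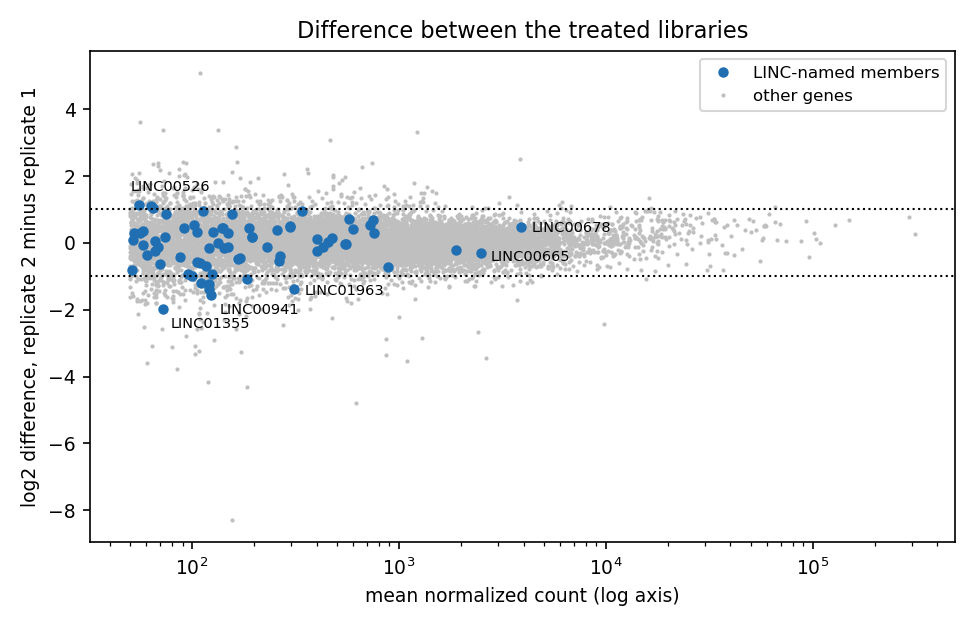
Log2 difference between the XMD892 libraries (replicate 2 minus replicate 1, vertical axis) against mean normalized count (horizontal log axis) for members and for all other genes at the minimum; dotted lines mark 2-fold. The members lie within the cloud of other genes, with 7 below the lower line and 3 above the upper line.

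LINC00526 and LINC00667 start from the same stretch of chromosome 18 on opposite strands. Their RefSeq windows printed above overlap by 170 bases, and 773 bases of their exons overlap in GENCODE release 29. From the RefSeq starts of those windows, the genes run away from each other. LINC00667 had 420 reads in replicate 1 and 390 in replicate 2 and stood at 3.15 ± 0.359 RPKM, with a log2 difference of -0.13 (counting interval -0.33 to 0.07). LINC00526 had a log2 difference of 1.12 (0.53 to 1.79), the largest of any member toward replicate 2. The pair was picked for its unlike differences, so a comparison of these intervals carries no test. The annotation used for counting is not given in the sources used here. If the genes share bases in it, reads there cannot be assigned to either gene without the strand.

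How reads that match several genes were counted is not given in the sources used here, so members that share sequence with another gene are given as uncertain. In GENCODE release 29 transcripts, 20 of 68 members shared more than 10% of their 50-base stretches with another gene on either strand, and 18 shared none. The partner named for a member is the gene with most matches summed over its transcripts, which favours genes with many transcripts. LINC01001 shared 86.5%, with LINC01002 as partner, which itself shared 69.9%. LINC00623 shared 64.6%, with LINC00869 as partner. LINC01089 shared 46.4%, with RHOF as partner, but its largest exon overlap was with AC084018.2, at 2011 bases. LINC00526 shared 39.6%, with LINC00667 as partner. At least 2-fold apart were 6 of the 20 sharing members and 3 of the other 48, where the share was 5.64% of all genes at the minimum and 12.8% of those up to the members' upper quartile; LINC00941 has no gene model here. Whether the classes differ was not tested. The sharing members were also lower, with a median of 120.7 normalized counts, against 169 for the others. Of the stem cell members, LINC00678 shared 3.84%, and LNCPRESS1, LNCPRESS2 and LINC01108 shared none.

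Over all genes at the minimum 46.1% were higher in replicate 1. Of the 12 members whose longest transcript has 1 exon, 8 were higher there, with a median of -0.51. Of the 56 with more exons, 26 were higher there and the median was 0.079. The difference between these classes was not tested. Across the 68 members the difference and log2 merged exon length had a Pearson's r of -0.33, and across 12530 genes at the minimum an r of -0.20. These describe genes within the same pair of libraries, which are not independent replicates.

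Neighbouring coding genes gave no common pattern. The median distance to the nearest coding gene was 13821 bases. In 17 cases the gene bodies overlapped, and 12 members had no coding gene within 100 kb. For 47 members the nearest coding gene itself reached the minimum, and 23 of these pairs had differences of the same sign, with a Pearson's r of -0.046 across pairs of the same libraries. Of the 7 members that start within 1000 bases of a coding gene's start on the other strand, 5 had its sign. The exons of 32 members overlap another gene's, and such genes can share reads.

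**Figure D4:**
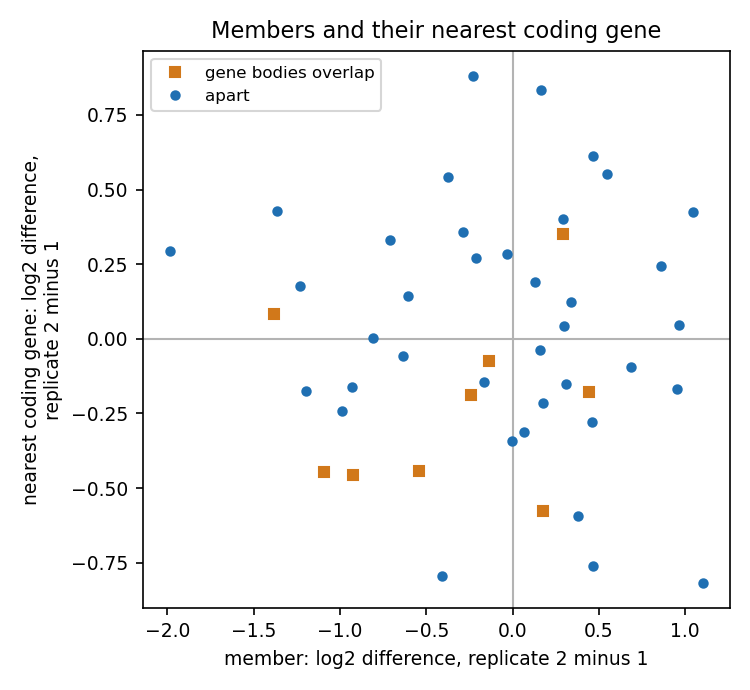
Log2 difference between the XMD892 libraries (replicate 2 minus replicate 1) of the nearest coding gene (vertical axis) against that of the member (horizontal axis), for the 47 pairs whose coding gene reached 50 normalized counts; squares mark overlapping gene bodies. The points fall in all 4 combinations of sign, with 23 of 47 pairs of the same sign.

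Better known long RNAs outside these symbols give a scale for the levels. Of 28 on the list 24 were listed and 19 reached the minimum, 9 of them higher in replicate 2 and 10 in replicate 1, with a median level of 3.24 RPKM over those listed with a length. ESRG, an RNA of human pluripotent cells, stood at 403 ± 53.5 RPKM, above LINC00678. NORAD, which binds PUMILIO proteins, stood at 52.2 ± 4.10 RPKM, beside LNCPRESS2. NEAT1, the RNA of paraspeckles, and KCNQ1OT1, an imprinted RNA, were 3.28-fold and 3.14-fold higher in replicate 1, and MIAT was 2.18-fold higher in replicate 2. LINC-ROR, first described in reprogrammed cells, had 18 and 8 reads.

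The minimum falls within a continuous range. Just inside it, LINC01356, LINC01138 and LINC01415 had means of 51.2, 52.1 and 52.6 normalized counts. Just outside, LINC00173, LINC01918 and LINC01569 had 49.5, 48.4 and 47.8. The 219 genes of the pattern below the minimum had a median of 8.50 normalized counts.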

How the data were processed

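Poly(A) RNA was sequenced in paired ends. The deposited table holds a signal: as its values show, the authors scaled each library's gene counts by a single factor, and 100% of values were whole multiples of 1 step within 0.01 reads, so whole reads were recovered (factors 0.932 and 0.948). The submitters' processing notes name Trimmomatic 0.36, STAR, featureCounts 1.5.3, DESeq2 1.26.0 and hg38, with no roles. Of the table's columns 7 match no sample by name and were not used, 1 of them also named for XMD892 at 12 h. The planned edgeR test of XMD892 against E8 was therefore not run. RPKM used merged exons of GENCODE release 29; 63 members matched by symbol, 5 by RefSeq's present symbol, and LINC00969, LINC00941 and LINC01481 by neither. The depth behind each value is given by its reads. Differences used a pseudocount of 1, which understates gaps of low genes. TMM (edgeR 4.0.16) and size factors (DESeq2 1.42.0) were tried as scales. The code was tested on simulated data. Named genes are those of the stem cell and small-peptide lists, the 12 highest members by RPKM and by normalized count, the 6 widest differences each way, and 3 genes on each side of the minimum. LINC00094, LINC02001, LINC00888, LINC00969, LINC01021, LINC00667, LINC01002, LINC01089, LINC00623, LINC00869 and LINC00963 were named after their values were seen. Members and lists were chosen with earlier results of these data known.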

Additional observations from a re-analysis of the deposited data

How the results depend on the processing

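With the length of the longest transcript in place of merged exons the members' median was 3.11 RPKM, against 2.04, and 58 members in place of 46 reached 1 RPKM in both libraries. From a single library the median ran from 2.06 to 2.47 RPKM. The number of members ran from 71 to 73 with 1 library, and was 99 with a minimum of 25 and 50 with a minimum of 100. The counts of members at least 2-fold apart ran from 2 to 3 toward replicate 2 and from 7 to 10 toward replicate 1 over the 6 other scales and pseudocounts; total reads gave 2 and 10, and shifted the median of all genes to -0.064, with the members at -0.10. Of all genes 10.9% were 2-fold apart with a minimum of 10, and 16.9% with none. Low reads limit the folds, as for LINC01355 with 108 and 27. Leaving out a library gives no difference between libraries. No paired analysis was possible because the columns of the E8 samples were not matched, so the replicate block, the test against E8 and its other alternatives were not run.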

Other observations

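Of the 52 members with a promoter window, 17 had at most 10 CG pairs in each window, 31 had more in each window, and 4 had windows of both kinds. The medians of the 17 and the 31 were 1.85 and 2.19 RPKM. Higher in replicate 1 were 11 of the 17 and 12 of the 31, where 46.1% of all genes at the minimum were. At least 2-fold apart were 2 of the 17 and 6 of the 31, where 5.64% of all genes were. These counts were made after the values were seen, carry no test, and were not made by promoter class for other genes.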
